A study of Mus musculus with 6 samples.

Results

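RNA of muscle cells that carried a Twist2 lineage label was compared with RNA of the unlabelled cells sorted from the same kind of mouse. The mice were adult C57BL/6 animals of the genotype Tw2-CreERT2/+;R26-tdTO+, in which a tamoxifen-dependent Cre recombinase is driven by Twist2 and a Cre-dependent red fluorescent protein, tdTomato, sits at the Rosa26 locus. All were given tamoxifen 3 times, and hind-limb skeletal muscle was taken 10 days later, digested and sorted into tdTomato-positive cells (Tw2pos, n = 2 libraries) and tdTomato-negative cells (Tw2neg, n = 2). Both groups therefore share the genotype, the Cre allele and the tamoxifen, and differ in the label. Tw2neg is every digested cell without the label, with no further sort marker named in the labels. These are 4 of the 6 libraries of the series. The genes compared are the 14155 of 24062 listed that had a mean of at least 10 normalised counts over the 4 libraries, that is, read counts that the authors had divided by a size factor for each library. The gene just inside that minimum was Nxpe5 at 10.01, and the gene just outside it Ccdc30 at 9.999. The labels do not say whether the replicates came from separate animals, so the p-values rest on a spread that may be no more than technical.

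Twist2 is a basic helix-loop-helix transcription factor of embryonic and adult mesenchyme, and factors of this class bind the E-box, the DNA motif CANNTG. A label switched on by Twist2-driven Cre is permanent, so that a labelled cell need not still express Twist2. The connective tissue of limb muscle holds fibro-adipogenic progenitors, which make matrix and growth factors, and tendon cells at the ends of the muscle. Alongside them are the satellite cells under the basal lamina of the fibres, endothelium, pericytes, nerve-associated cells and cells of the blood.

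In the lists of values below, the libraries come in the order Tw2pos replicate 1 and 2 against Tw2neg replicate 1 and 2. Twist2 (GRCm38 chromosome 1, 91801461 to 91848028, plus strand) stood at 99.4 and 222 normalised counts in Tw2pos and 22.0 and 23.2 in Tw2neg. The labelled libraries did not overlap with the unlabelled ones, although they differed from each other by more than the difference between the 2 unlabelled libraries, and the log2 fold change was 2.67 (SE 0.45, adjusted p = 0.00706). Twist1 (GRCm38 chromosome 12, 33957671 to 33959829, plus strand), a relative of Twist2 in the same mesenchymal programmes, had 762 and 842 normalised counts in Tw2pos and 168 and 94.3 in Tw2neg (log2 fold change 2.66, SE 0.31, adjusted p = 0.00237). The unlabelled libraries thus held reads of both genes. Pax7, which marks satellite cells, had 150.4 and 89.3 normalised counts in Tw2pos and 569 and 186 in Tw2neg, and was not called in the reported fit (log2 fold change −1.48, adjusted p = 0.0803). It was called lower with DESeq2, under library total scaling and with the replicate number as a block.

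The Tw2pos libraries held 10902318 and 12425426 reads and the Tw2neg libraries 13205751 and 13005707. The median gene differed between replicates by 0.19 on the log2 scale in Tw2pos and by 0.38 in Tw2neg. With limma and an adjusted p under 0.05, 2645 genes (18.7%) were higher and 2825 (20.0%) lower in Tw2pos, 38.6% of all tested, with a median log2 fold change of −0.04. These shares are the background for every count of a gene list given below. Scaled by library totals, the median was −0.49 and the split 1607 higher and 5257 lower. The 10 genes with the most reads held 17.2% and 17.9% of the Tw2pos reads and 5.98% and 4.91% of the Tw2neg reads. Without Tw2pos replicate 1, 1141 higher and 1690 lower genes were called, and without Tw2pos replicate 2, 1010 and 1568. No gene called in the reported fit was called in the opposite direction under any of the 15 other settings. Fold changes are on the scale of log2 of the normalised count plus 1, which understates the change of low genes. Brackets after a list's count hold the count under another setting where it differed by more than 1.5 times, apart from the replicate block and a higher minimum of 50, which are in the closing section. Brackets after a list's median hold it where it changed sign or, with 1 library left out, moved by more than 1.5-fold. Where limma called 0 members, brackets first hold 3 numbers, the members in that direction at an unadjusted p under 0.05, by edgeR and by DESeq2.

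**Figure D1:**
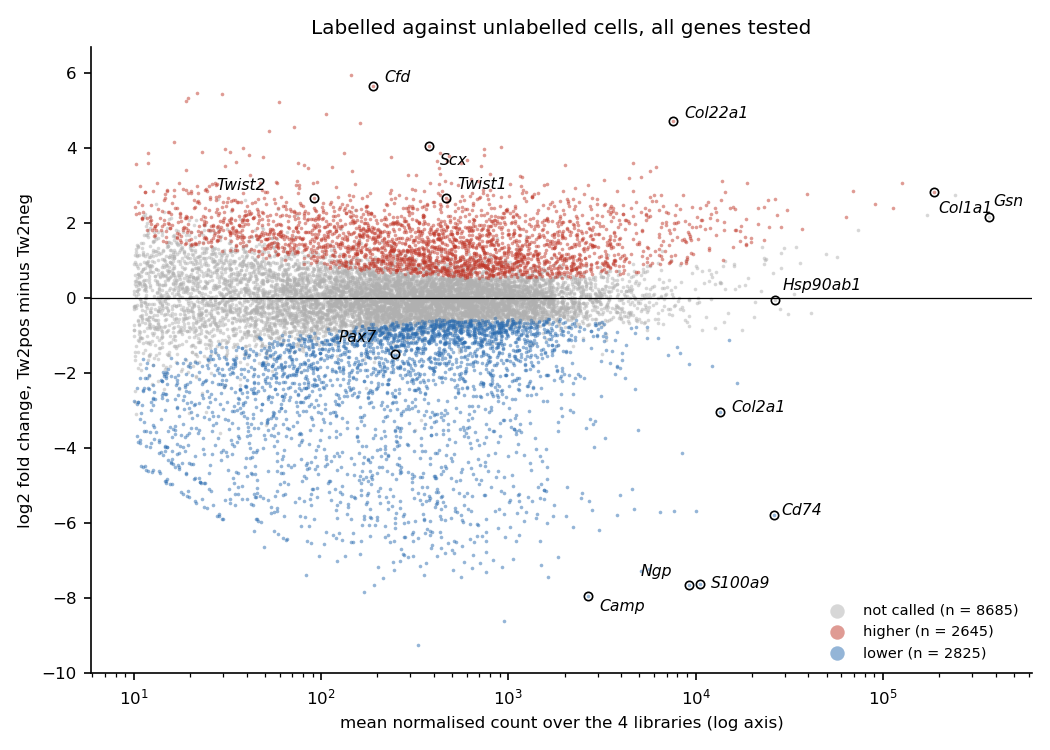
Each point is a tested gene, with its mean normalised count over the 4 libraries on a log axis and its log2 fold change, Tw2pos minus Tw2neg, on the vertical axis; red points were called higher (2645), blue points lower (2825), and circled genes are named. The called falls reach further from 0 than the called rises, and the circled genes run from −7.95 for Camp to 5.66 for Cfd.

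The most abundant RNA of both groups was Gsn, gelsolin, an actin-severing protein with a secreted form that is plentiful in fibro-adipogenic progenitors. It had 530363 and 676094 normalised counts in Tw2pos and 151114 and 120742 in Tw2neg, and its difference missed the threshold (log2 fold change 2.15, adjusted p = 0.203). Of the other genes of highest mean in Tw2pos, Col1a1, a chain of collagen I, rose with 301492 and 350942 against 67565 and 31243 (log2 fold change 2.82, SE 0.84, adjusted p = 0.0416). Thbs4, a matrix protein of tendon, rose with 237014 and 211920.3 against 39386 and 17994 (log2 fold change 3.07, SE 0.69, adjusted p = 0.0182). Per kilobase of merged exon, Thbs4 stood at 72063 and 64433 against 11975 and 5471 normalised counts. Col1a1 stood at 45938 and 53473 against 10295 and 4761 per kilobase, below Thbs4 in each of the 4 libraries. In Tw2neg the genes of highest mean also took in Cd74, the invariant chain of antigen-presenting cells, which fell with 761 and 1047 against 36114 and 66508 (log2 fold change −5.78). At the other end, 6 abundant genes with a log2 fold change within 0.1 of 0 were Hsp90ab1, Eif4g2, Mcl1, Irf1, Klf6 and Hnrnpa2b1, which cover a chaperone, translation, cell survival, stress response and RNA binding. Hnrnpa2b1 had 7908 and 8461 against 7446 and 8899 normalised counts, so that labelled and unlabelled libraries overlapped. Significance was lost for Col1a1 with no filter on level and without Tw2neg replicate 1 (adjusted p from 0.0621 to 0.0629), for Col1a1 and Thbs4 under quantile normalization, without Tw2pos replicate 1, without Tw2pos replicate 2 and without Tw2neg replicate 2 (adjusted p from 0.0669 to 0.315).

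Among the largest rises were secreted and neural genes as well as tendon genes. Cfd, the serine protease complement factor D, had 433 and 312 normalised counts in Tw2pos and 8.13 and 4.80 in Tw2neg (log2 fold change 5.66, SE 0.39, adjusted p = 0.000533). Pnoc, the precursor of the neuropeptide nociceptin, had 59.9 and 175 against 3.25 and 0.8 (log2 fold change 5.23). C1qtnf4, a secreted relative of complement C1q, had 171 and 241 against 8.13 and 3.998 (log2 fold change 4.92). Ptprt, a receptor tyrosine phosphatase known from the nervous system, had 297 and 323 against 19.5 and 6.40 (log2 fold change 4.66). The largest rises and falls were taken from genes whose groups do not overlap. Crabp1, a retinoic acid carrier (GRCm38 chromosome 9, 54764748 to 54773110, plus strand), had 53.5 and 149.6 against 4.07 and 2.40 (log2 fold change 4.45). Scx, the transcription factor of tendon progenitors (GRCm38 chromosome 15, 76457452 to 76459458, plus strand), had 782 and 621 against 77.3 and 21.6 (log2 fold change 4.05, SE 0.57, adjusted p = 0.00412). Ptx4, a pentraxin (GRCm38 chromosome 17, 25120760 to 25125292, plus strand), reached 1828 and 1586 against 191 and 56.0 (log2 fold change 4.03). Scube2, a secreted protein that releases Hedgehog ligands from cells (GRCm38 chromosome 7, 109798676 to 109865679, minus strand), had 1382 and 1383 against 150.4 and 51.2 (log2 fold change 3.96). Blood cell genes stood out among the falls. For Cnr2, a cannabinoid receptor found on leukocytes, neither labelled library held a read, against 401 and 921 normalised counts, at least 178-fold lower with a floor of 3 reads per library. Cd177, a surface protein of neutrophils, had 21.7 and 0 against 2271 and 1499 (log2 fold change −8.60, SE 1.34, adjusted p = 0.00559). H2-Ob, which edits the peptides loaded on class II molecules of B cells, had 11.5 and 21.7 against 1879 and 4591 (log2 fold change −7.45). Ms4a1, the B-cell antigen CD20, had 3.82 and 6.03 against 668 and 1552 (log2 fold change −7.45). S100a9, a subunit of neutrophil calprotectin, had 140.2 and 77.2 against 20729 and 21018 (log2 fold change −7.63). Pax5, the B-lineage transcription factor, had 1.27 and 1.21 against 255 and 604, where each labelled value is 1 read. The log2 fold change without Tw2pos replicate 1 or Tw2pos replicate 2 or Tw2neg replicate 1 or Tw2neg replicate 2, respectively, was 5.99 or 4.46 or 5.85 or 4.61 for Pnoc. Without Tw2neg replicate 1 or Tw2neg replicate 2, respectively, the log2 fold change was 5.39 or 3.92 for Ptprt, 4.95 or 3.16 for Scx, 4.90 or 3.15 for Ptx4, 4.73 or 3.19 for Scube2, −8.09 or −6.80 for H2-Ob and −8.06 or −6.84 for Ms4a1. The log2 fold change without Tw2pos replicate 1 or Tw2pos replicate 2, respectively, was 5.18 or 3.72 for Crabp1 and −10.85 or −6.35 for Cd177.

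To show what lies before the start of genes at either end, the 250 bases upstream of the RefSeq start are printed for Cfd and for Tnmd, the tendon membrane protein tenomodulin, and for the neutrophil granule genes Camp and Ngp, 5′ to 3′ on the gene's strand. Capitals mark each CANNTG, which reads the same on both strands in its fixed letters. The positions are GRCm38.p6 chr10:79890603-79890852, plus strand, for Cfd, chrX:133850758-133851007, plus strand, for Tnmd, chr9:109849457-109849706, minus strand, for Camp and chr9:110419558-110419807, plus strand, for Ngp.
Cfd: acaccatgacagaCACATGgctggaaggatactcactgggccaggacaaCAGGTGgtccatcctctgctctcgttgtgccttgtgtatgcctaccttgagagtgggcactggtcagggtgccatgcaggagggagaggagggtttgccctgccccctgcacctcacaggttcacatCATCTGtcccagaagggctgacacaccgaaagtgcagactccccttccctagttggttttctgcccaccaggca
Tnmd: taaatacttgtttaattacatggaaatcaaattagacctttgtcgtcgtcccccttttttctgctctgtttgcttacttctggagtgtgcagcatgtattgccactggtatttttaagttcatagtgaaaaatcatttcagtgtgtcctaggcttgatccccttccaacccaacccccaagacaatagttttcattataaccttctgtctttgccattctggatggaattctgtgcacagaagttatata
Camp: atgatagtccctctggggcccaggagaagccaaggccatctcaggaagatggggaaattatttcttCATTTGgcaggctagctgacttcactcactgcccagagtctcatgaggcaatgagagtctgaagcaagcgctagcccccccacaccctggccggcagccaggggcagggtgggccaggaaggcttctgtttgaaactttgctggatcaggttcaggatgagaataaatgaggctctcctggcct
Ngp: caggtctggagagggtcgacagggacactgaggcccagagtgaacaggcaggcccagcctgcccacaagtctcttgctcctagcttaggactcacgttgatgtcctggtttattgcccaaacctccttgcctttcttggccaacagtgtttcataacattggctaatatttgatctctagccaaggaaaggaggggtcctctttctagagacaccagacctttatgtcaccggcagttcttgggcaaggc
Cfd holds 3 matches and Camp 1, while these letters are not in the windows of Tnmd and Ngp. A window of this length held a CANNTG in 66.0% of all 27025 windows of the RefSeq table. Of the tested genes, 10558 matched the table by symbol. The share was 57.5% of 1900 genes called higher, 62.2% of 2102 called lower and 55.5% of 6556 not called. For the E-box CATATG, read the same on both strands, the shares were 1.32% of the higher and 2.33% of the lower genes, against 1.19% of those not called and 3.47% of all windows. For CATCTG on either strand they were 11.7% and 12.2%, against 9.05% of those not called and 14.5% of all windows. Differences in these shares were not tested. Both 6-letter motifs are cases of CANNTG. The windows describe sequence alone, and no binding was measured.

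The collagen chains did not move as one family. The fibrillar list, the chains of thick banded fibres, had 5 of 11 tested members higher (3 without Tw2pos replicate 2, 8 with DESeq2) and 1 lower (2 without Tw2neg replicate 2), with a median log2 fold change of 2.02. Col5a2, which joins collagen V in type I fibrils, rose with 30076 and 29561 against 8938 and 5356 (log2 fold change 2.11, SE 0.36, adjusted p = 0.00742). Col24a1, a minor fibrillar chain, rose with 263 and 289 against 77.3 and 43.2 (log2 fold change 2.23). Col1a2, the partner of Col1a1, had 413012 and 423991 against 90925 and 42385 and was not called (log2 fold change 2.75, adjusted p = 0.0628). Col3a1, of the fine fibrils around fibres, had 280916 and 277988 against 83951 and 43129.9 and was not called (log2 fold change 2.22, adjusted p = 0.0829). In both, each labelled library lay above each unlabelled one. The member that fell was Col2a1, the collagen of cartilage (GRCm38 chromosome 15, 97975602 to 98004695, minus strand), with 2519 and 3112 against 31925 and 16626 (log2 fold change −3.04, SE 0.37, adjusted p = 0.00277). Both unlabelled libraries lay above both labelled ones for Col2a1, the reverse of the order for Col5a2. Per kilobase, Col2a1 was 0.00593 and 0.0063 of the level of Col1a1 in Tw2pos and 0.336 and 0.378 of it in Tw2neg.

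The FACIT list, collagens that coat fibrils, split along the same line, with 4 of 9 higher, 3 lower (5 under library total scaling) and a median of −0.87. The 3 chains of collagen IX, which coats cartilage fibrils, were the ones that fell. Col9a1 had 164 and 183 against 2719 and 1479 (log2 fold change −3.52). Col9a2 had 324 and 345 against 1635 and 966 (log2 fold change −1.91). Col9a3 had 139 and 113 against 1813 and 1102 (log2 fold change −3.48). Col12a1 and Col14a1, which coat type I fibrils of tendon and muscle fascia, rose by log2 fold changes of 2.57 and 1.99. Col22a1, a chain of the muscle-tendon junction, rose with 14137 and 14729.9 against 928 and 328 (log2 fold change 4.71). Col10a1, a network collagen of hypertrophic cartilage, fell with 279 and 204 against 2176 and 798 (log2 fold change −2.46). In the same network list Col8a1 and Col13a1, a membrane collagen of the neuromuscular junction, rose by log2 fold changes of 1.97 and 2.38. In all, 5 of 8 were higher and 1 lower, with a median of 1.79. Without Tw2neg replicate 1 or Tw2neg replicate 2, respectively, the log2 fold change was 5.46 or 3.96 for Col22a1 and −1.74 or −3.18 for Col10a1.

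Collagens of basement membranes and of the beaded microfibril around cells were higher in 12 of 15 tested members (6 without Tw2pos replicate 1) and lower in 0 (0, 0 and 0), with a median of 1.86. Col6a1 and Col6a2, chains of the microfibril collagen VI whose mutation causes muscular dystrophy, rose together. Col6a1 had 48248 and 53369 against 13228 and 7414 (log2 fold change 2.36). Col6a2 had 36883 and 40538 against 10076 and 5119 (log2 fold change 2.43). Their ratio per kilobase, Col6a1 over Col6a2, was 2.49 and 2.50 in Tw2pos and 2.50 and 2.75 in Tw2neg. Col4a1, the chain of most basement membranes, had 38407 and 44888 against 22918 and 11885 and was not called (log2 fold change 1.33, adjusted p = 0.0651). Col4a3 and Col4a4, known best from the kidney filter, lie head to head and both rose. Col4a3 had 1099 and 1159 against 169 and 89.6 (log2 fold change 3.19). Col4a4 had 1151 and 1317 against 198 and 99.9 (log2 fold change 3.12). Per kilobase Col4a3 was 0.0214 and 0.0193 of the level of Col4a1 in Tw2pos and 0.00553 and 0.00564 of it in Tw2neg.

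**Figure D2:**
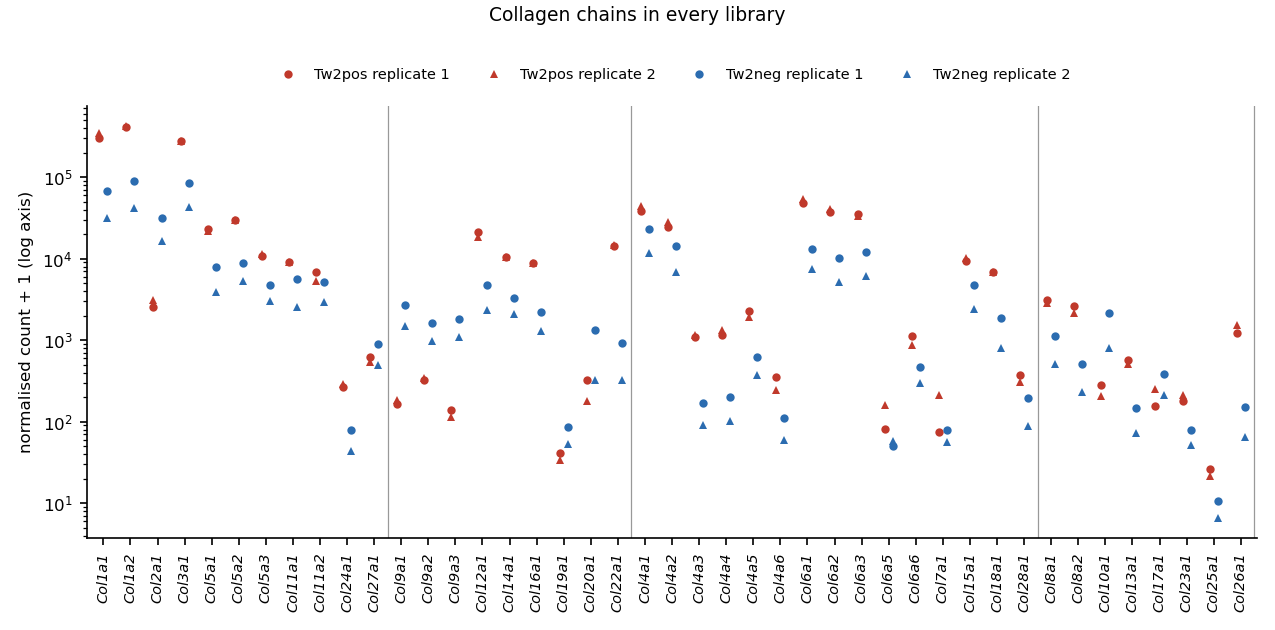
Normalised counts plus 1 (log axis) of every tested collagen chain in the 4 libraries, red for Tw2pos and blue for Tw2neg, circles for replicate 1 and triangles for replicate 2; vertical lines part the fibrillar, FACIT, basement membrane and microfibril, and network and membrane lists. Col2a1, Col9a1, Col9a2, Col9a3 and Col10a1 have their blue points above their red ones, while most other chains have the reverse.

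The enzymes and chaperones that fold, trim and crosslink collagen were higher in 25 of 27 tested members and lower in 0 (0, 0 and 0), with a median of 1.88. Pcolce, which speeds removal of the procollagen C-propeptide, had 19116 and 19259 against 4538 and 2599 (log2 fold change 2.48, SE 0.33, adjusted p = 0.00353). Adamts3, which removes the N-propeptide of collagen II and others, had 2263 and 1867 against 322 and 143 (log2 fold change 3.25). Lox and Loxl3, copper enzymes that crosslink collagen and elastin, rose by log2 fold changes of 2.75 and 2.59. The list of the general export machinery had a lower median. Of 26 secretory pathway genes, 17 were higher (6 without Tw2pos replicate 1 or Tw2pos replicate 2, 8 under library total scaling) and 0 (0, 0 and 0) lower, with a median of 0.85. Creb3l1, a factor that raises secretory capacity for collagen, had 1187 and 1587 against 444 and 268 (log2 fold change 1.99). Sec24d, a coat protein needed to export procollagen, had 3319 and 3213 against 1118 and 806 (log2 fold change 1.78). Kdelr3, a receptor that retrieves chaperones, had 1052 and 1020.3 against 344 and 168 (log2 fold change 2.10). The chaperone Hspa5 had 26041 and 38092 against 19202 and 20460.3 and was not called (log2 fold change 0.67, adjusted p = 0.223), nor was the stress factor Xbp1, with 2718 and 3090 against 2368 and 2257 (log2 fold change 0.33, adjusted p = 0.211).

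Small leucine-rich proteoglycans, which space collagen fibrils, were higher in 13 of 15 tested members and lower in 1 (2 with a pseudocount of 10, under library total scaling and with DESeq2), with a median of 2.47. Bgn had 56868 and 80306 against 12914 and 7470.4 (log2 fold change 2.78, SE 0.45, adjusted p = 0.00649). Lum had 11626 and 16057 against 3045 and 2256 (log2 fold change 2.38). Kera, a keratocan of cornea and tendon, had 9870.2 and 8316 against 1563 and 604 (log2 fold change 3.22). The member that fell was Podnl1, with 6.37 and 2.41 against 39.8 and 60.8 (log2 fold change −3.32). Genes of elastic fibres were higher in 17 of 18 and lower in 0 (0, 0 and 0; 1 under library total scaling), with a median of 2.01. Fbn2, the fibrillin of developing microfibrils, had 1068 and 984 against 118 and 58.4 (log2 fold change 3.61). Fbln1 had 9141 and 11954 against 2221 and 1340.1 (log2 fold change 2.60). For both proteoglycans and elastic fibre genes named as higher, the lowest labelled library lay above the highest unlabelled one. Such an order is no separate support, because these genes were already called. The log2 fold change without Tw2neg replicate 1 or Tw2neg replicate 2, respectively, was 3.91 or 2.53 for Kera.

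Matricellular proteins, which sit in the matrix and alter cell behaviour, were higher in 20 of 23 and lower in 0 (0, 0 and 0), with a median of 2.16. Comp, a partner of Thbs4 in tendon and cartilage, had 15236 and 12654 against 4942 and 2237 (log2 fold change 2.06, SE 0.41, adjusted p = 0.0118). Smoc2, a calcium-binding matrix protein, had 18634 and 20155 against 5713 and 3404 (log2 fold change 2.14). Thbs1, the thrombospondin of platelets and injured tissue, was abundant in all 4 libraries with 34936 and 34515 against 31859.7 and 32879 and was not called (log2 fold change 0.10, adjusted p = 0.861). Hyaluronan and large proteoglycan genes went both ways, with 5 of 14 higher (8 without Tw2neg replicate 1) and 2 lower, and a median of 1.37 (0.70 without Tw2neg replicate 2). The share of this list called lower was under the 20.0% of all tested genes. Prg4, the lubricin of joint and tendon surfaces, had 19443 and 23384 against 4836 and 3373 (log2 fold change 2.40), and Tnfaip6, which links hyaluronan to matrix proteins, rose by a log2 fold change of 1.98. Acan, the aggrecan of cartilage, fell with 239.7 and 203 against 2394 and 1214 (log2 fold change −2.95), as Col2a1 did.

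Matrix proteases and their inhibitors were higher in 14 of 25 (9 without Tw2pos replicate 2) and lower in 5, with a median of 1.34. Mmp2, a gelatinase of fibroblasts, had 32426 and 39561 against 8512 and 5499 (log2 fold change 2.39, SE 0.36, adjusted p = 0.00497). Mmp23 had 900.1 and 1090.3 against 202 and 129.5 (log2 fold change 2.61). Timp1, a broad inhibitor, had 4106 and 5404 against 696 and 485 (log2 fold change 3.02). The share of the protease list called lower was close to the 20.0% of all tested genes. Mmp8 and Mmp9, the collagenase and gelatinase of neutrophil granules, both fell. Mmp8 had 10.2 and 7.24 against 1613 and 1406 (log2 fold change −7.29). Mmp9 had 33.1 and 62.7 against 1918 and 1234 (log2 fold change −5.04). Both also belong to the neutrophil lists.

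The tendon list was higher in 11 of 13 tested members and lower in 0 (0, 0 and 0), with a median of 2.73. Beside Scx, which belongs to it, Tnmd, the mature tendon marker whose window is printed above, had 8315 and 8539 against 1128 and 425 (log2 fold change 3.60, SE 0.44, adjusted p = 0.00285). Markers of fibro-adipogenic progenitors were higher in 17 of 24 and lower in 0 (0, 0 and 0; 1 under library total scaling), with a median of 1.69. Pdgfra, the receptor by which these cells are usually sorted, had 11121 and 11045 normalised counts in Tw2pos and 3345 and 2196 in Tw2neg (log2 fold change 2.03, SE 0.27, adjusted p = 0.00362). Cxcl14, a chemokine of fibroblasts, had 2700.2 and 3199.7 against 1077 and 828 (log2 fold change 1.64). Myoc, a secreted protein of nerve and muscle sheaths, had 24179.6 and 27332 against 5884 and 3980.3 (log2 fold change 2.41). Gdf10, a TGF-beta family ligand, had 6939 and 6274 against 1381 and 608 (log2 fold change 2.85). The unlabelled libraries also held Pdgfra, more in replicate 1 than in replicate 2. The summed list stood at 670048 and 839722 against 206107 and 159389.8. In such bulk samples fewer cells of a type and less RNA per cell cannot be told apart. Without Tw2neg replicate 1 or Tw2neg replicate 2, respectively, the log2 fold change was 4.30 or 2.90 for Tnmd and 3.44 or 2.26 for Gdf10.

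**Figure D3:**
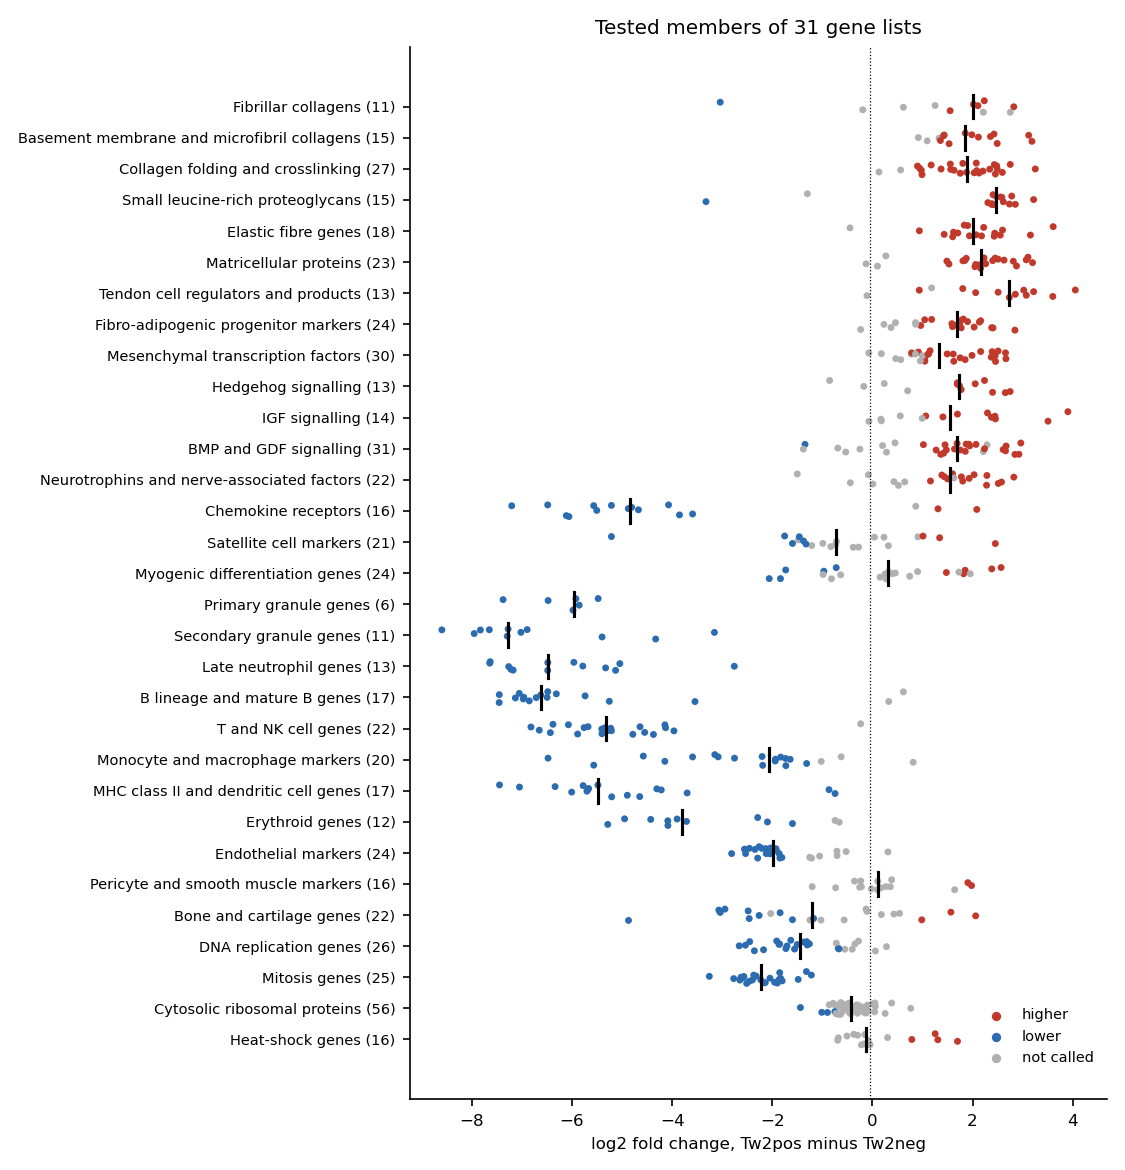
Each point is a tested member of a gene list, placed by its log2 fold change, Tw2pos minus Tw2neg, and coloured by its call; thick bars are list medians, the number of tested members stands in brackets, and the dotted line is the median of all genes tested. From the top, the plotted lists down to mesenchymal transcription factors, which leave out the FACIT collagens, have medians between 1.32 and 2.73, and the plotted lists of neutrophil stages and of mature B cells medians between −7.28 and −5.95.

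Mesenchymal transcription factors were higher in 22 of 30 (11 without Tw2pos replicate 1, 12 without Tw2pos replicate 2) and lower in 0 (0, 0 and 0), with a median of 1.32. This count takes in Twist2, the gene that drives the Cre of the label. Prrx1, which marks limb mesenchyme, had 3955 and 3634 against 932 and 514 (log2 fold change 2.45, SE 0.30, adjusted p = 0.00285), and its relative Prrx2 389 and 361 against 86.2 and 48.8 (log2 fold change 2.51). Factors that pattern the limb were higher in 9 of 17 (4 without Tw2pos replicate 2, 5 without Tw2pos replicate 1) and lower in 0 (0, 0 and 0), with a median of 1.37. Shox2, a factor of the proximal limb, had 226 and 192 against 43.9 and 35.2 (log2 fold change 2.37). Meis1, also a factor of blood stem cells, had 305 and 283 against 96.0 and 64.8 (log2 fold change 1.88). Pitx1, the factor that gives the hind limb its identity, rose with 71.4 and 68.7 against 19.5 and 9.59 (log2 fold change 2.27, adjusted p = 0.0121). Calls not kept were those for Pitx1 without Tw2pos replicate 1 and without Tw2pos replicate 2 (adjusted p from 0.0528 to 0.0547).

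The Hox genes, which give cells a position along the body and limb axes, lie in 4 clusters. All 7 tested genes of cluster C were higher (3 without Tw2pos replicate 1 or Tw2pos replicate 2), with a median of 2.07, a lowest value of 1.38 and a highest of 2.32. Hoxc6 had 159 and 217 against 50.4 and 37.6 (log2 fold change 2.07, SE 0.31, adjusted p = 0.0052). Hoxc4 had 130 and 101 against 29.3 and 16.8 (log2 fold change 2.32). Hoxc10, a hind-limb member, had 393 and 511 against 128 and 79.2 (log2 fold change 2.14). None of the 8 tested genes of cluster B passed with limma, while other settings called some lower (1 without the mean-variance trend and with DESeq2, 5 under library total scaling, 6 without Tw2neg replicate 2). In that cluster, 3 were lower at an unadjusted p under 0.05, 0 by edgeR and 1 by DESeq2. All 8 had a log2 fold change below 0, with a median of −1.09, except that Hoxb2, singled out after its values were seen, was above 0 under quantile normalization and without Tw2neg replicate 1. Hoxb4, a factor of blood progenitors, had 56.1 and 41.0 against 165 and 84.0 (log2 fold change −1.28, adjusted p = 0.053). In clusters A and D the calls of the reported fit lay in paralogue groups 8 to 13. The groups were split there after their values were seen. Of groups 8 to 13, 2 of 3 were higher in cluster A (1 without Tw2pos replicate 1 or Tw2pos replicate 2) and 3 of 5 in cluster D (1 without Tw2pos replicate 2, 5 without Tw2neg replicate 1 and under quantile normalization), against 0 of 6 and 0 of 2 of the lower groups (for cluster D, 1 without Tw2neg replicate 1). Of those lower groups, 0 in cluster A and 0 in cluster D were higher at an unadjusted p under 0.05, 0 and 0 by edgeR and 0 and 0 by DESeq2. Hoxa10 had 286 and 258 against 71.6 and 36.8 (log2 fold change 2.38). Hoxd11 had 25.5 and 26.5 against 3.25 and 3.20 (log2 fold change 2.68). Differences between clusters were not tested.

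**Figure D4:**
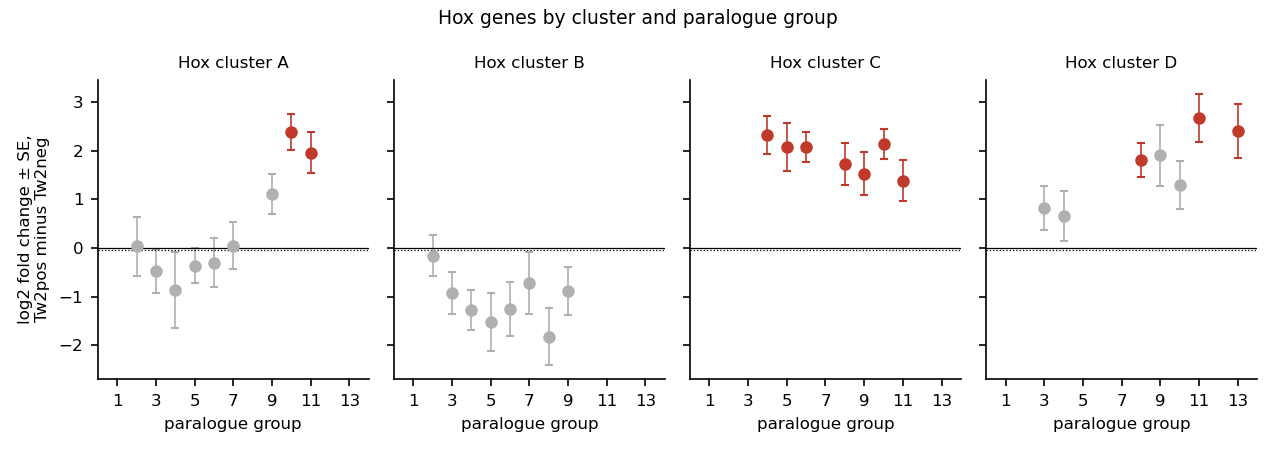
Log2 fold change ± SE (limma, n = 2 libraries per group), Tw2pos minus Tw2neg, of the tested Hox genes by paralogue group in each cluster, red where called higher and grey where not called; the dotted line is the median of all genes tested. The 7 genes of cluster C are all red, and in clusters A and D the red points have paralogue groups of 8 or more.

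PDGF and FGF genes carry growth signals to mesenchyme, and 15 of 24 were higher (8 without Tw2pos replicate 1 or Tw2pos replicate 2) and 2 lower (1 without Tw2pos replicate 1, with no filter on level and under quantile normalization, 4 under library total scaling and with DESeq2), with a median of 1.42. The ligand Pdgfb fell with 107 and 67.5 against 859 and 256 (log2 fold change −2.45), while the receptor Pdgfra, above, rose. The ligand Pdgfc rose with 297 and 286 against 69.9 and 39.2 (log2 fold change 2.45). Pdgfrl, a receptor-like protein, had 2520.5 and 2942 against 484 and 231 (log2 fold change 3.02, SE 0.35, adjusted p = 0.00249). Fgf7, a ligand made by mesenchyme for epithelium, had 747 and 727 against 156 and 117 (log2 fold change 2.44). The receptor Fgfr1 had 6531 and 7259 against 2765 and 1936 (log2 fold change 1.57). Insulin-like growth factor genes were higher in 9 of 14 and lower in 0 (0, 0 and 0), with a median of 1.55. Igf1, the growth factor of muscle repair, had 4475 and 4619 against 1169 and 585 (log2 fold change 2.46, SE 0.33, adjusted p = 0.00378). The binding protein Igfbp5 had 27223 and 26500.1 against 7587 and 3517 (log2 fold change 2.38). The log2 fold change without Tw2neg replicate 1 or Tw2neg replicate 2, respectively, was −1.58 or −3.32 for Pdgfb.

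Hedgehog signalling genes, in which ligands act through the receptor Ptch1 to release the Gli factors, were higher in 9 of 13 and lower in 0 (0, 0 and 0; 1 without Tw2neg replicate 2), with a median of 1.74. Hhip, a decoy for the ligand and itself a pathway target, had 785 and 709 against 156 and 77.6 (log2 fold change 2.75, SE 0.35, adjusted p = 0.00311). The co-receptors Boc and Cdon rose by log2 fold changes of 2.24 and 1.69. BMP and GDF genes were higher in 21 of 31 and lower in 1 (0 without Tw2pos replicate 1 or Tw2pos replicate 2, with no filter on level, under quantile normalization and without the mean-variance trend, 2 without Tw2neg replicate 2 and with DESeq2, 4 under library total scaling), with a median of 1.69. Bmpr1b, a receptor, had 228 and 198 against 33.3 and 20.8 (log2 fold change 2.96). Chrdl1, an antagonist, had 4132 and 3861 against 714 and 385 (log2 fold change 2.93).

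Cytokine genes of the interleukin 6 family were called in both directions. Their share of falls was close to the 20.0% of all tested genes. Il6 rose with 5573 and 6324 against 2228 and 1725, a ratio of the group means of 3.01 (adjusted p = 0.00395). Cntfr, the receptor of ciliary neurotrophic factor, had 1313 and 1369 against 282 and 163 (log2 fold change 2.64). Il11ra1, the receptor of interleukin 11, had 3905 and 4195 against 1042 and 724 (log2 fold change 2.22). Osm, the oncostatin of myeloid cells, had 14.0 and 15.7 against 682 and 640.5 (log2 fold change −5.39). Of 13 members, 5 were higher (3 without Tw2pos replicate 2 or Tw2neg replicate 2, with no filter on level and under library total scaling) and 3 lower (1 without Tw2pos replicate 1), with a median of 0.78. Chemokine ligands were higher in 5 of 21 (2 without Tw2pos replicate 2) and lower in 10, with a median of −0.82. Ccl11, an eosinophil attractant, rose with 3185 and 3893 against 1282 and 993 (log2 fold change 1.64). Cxcl12, the ligand of Cxcr4, was abundant in all libraries with 3936 and 3788 against 5382 and 2028 and was not called (log2 fold change 0.22, adjusted p = 0.717). Their receptors were lower in 13 of 16, with a median of −4.84, and took in Ccr2 of monocytes, with 14.0 and 16.9 against 619.7 and 971 (log2 fold change −5.57). Cxcr4, of leukocytes and satellite cells, had 109.6 and 135 against 3280.5 and 6306 (log2 fold change −5.21). The 2 that rose (1 without Tw2pos replicate 1 or Tw2pos replicate 2) are atypical receptors that remove chemokines without signalling. Ackr4 had 233 and 268 against 79.7 and 42.4 (log2 fold change 2.08). Ackr2 had 277 and 298 against 121 and 109.5 (log2 fold change 1.31). The call was lost for Ackr2 without Tw2pos replicate 1 and without Tw2pos replicate 2 (adjusted p from 0.0646 to 0.0916).

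Complement genes were about evenly split, 10 higher and 9 lower of 24, with a median of 0.52. Beside Cfd, soluble components rose, such as C2, a protease of the classical pathway, with 2948 and 4247 against 640 and 539.7 (log2 fold change 2.59). C7, a part of the membrane attack complex, had 14354 and 21292 against 3940 and 2763 (log2 fold change 2.41, SE 0.32, adjusted p = 0.0035). The central component C3 had 29039.5 and 33827 against 15746 and 15549 and was not called (adjusted p = 0.0648). The named members that fell are receptors on leukocytes. Itgam had 106 and 104 against 2671 and 2381 (log2 fold change −4.58). Itgax had 6.37 and 12.1 against 368 and 575 (log2 fold change −5.55). Cr2, the receptor of B cells, had 5.10 and 15.7 against 607 and 1627 (log2 fold change −6.62). Without Tw2pos replicate 1 or Tw2pos replicate 2 or Tw2neg replicate 1 or Tw2neg replicate 2, respectively, the log2 fold change was −5.90 or −7.35 or −7.33 or −5.91 for Cr2.

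Neurotrophins and other nerve-associated factors were higher in 14 of 22 (8 without Tw2pos replicate 2, 9 without Tw2pos replicate 1) and lower in 0 (1, 0 and 0; 1 without Tw2neg replicate 2, under library total scaling and without the mean-variance trend), with a median of 1.55. Ptn, the heparin-binding growth factor pleiotrophin, had 960 and 913 against 220.4 and 110.3 (log2 fold change 2.58, SE 0.34, adjusted p = 0.0034). Gfra4, a receptor of the GDNF family, had 85.4 and 91.7 against 13.01 and 10.4 (log2 fold change 2.82). Ntrk2, the receptor of Bdnf, had 2918 and 3384 against 947 and 624 (log2 fold change 2.03). Lrp4, the agrin receptor of the neuromuscular junction, had 1186 and 1017 against 415 and 237 (log2 fold change 1.80). Neuropeptide genes were higher in 6 of 11 and lower in 2 (1 without Tw2pos replicate 1, 4 under library total scaling), with a median of 1.24. The share of neuropeptide genes called lower was close to the 20.0% of all tested genes. Penk, the enkephalin precursor, had 1671 and 1810.3 against 449 and 385 (log2 fold change 2.06). Tac1, that of substance P, had 303 and 464 against 81.3 and 55.2 (log2 fold change 2.47), whereas Gal, the galanin precursor, fell with 106 and 156 against 560.3 and 337 (log2 fold change −1.75). Galr2, a receptor of galanin, rose with 58.6 and 59.1 against 10.6 and 7.20 (log2 fold change 2.62).

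Axon guidance genes were higher in 13 of 31 (8 without Tw2pos replicate 2) and lower in 6, with a median of 0.96. The secreted ligand Slit3 had 6984 and 8166 against 1775 and 1147 (log2 fold change 2.40). Sema3a and Ntn1, also secreted, rose by log2 fold changes of 2.55 and 2.24. Epha3, an ephrin receptor, had 782 and 854 against 115 and 76.0 (log2 fold change 3.11, SE 0.26, adjusted p = 0.00092). The share of this list called lower was close to the 20.0% of all tested genes. The named members that fell, Sema4a, Sema4d and Plxnc1, are transmembrane proteins also known from leukocytes, with log2 fold changes of −2.93, −4.77 and −3.65. Sema4d had 58.6 and 56.7 against 1212 and 2117 normalised counts.

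Genes of satellite cells had no common direction, with 3 of 21 higher (1 without Tw2pos replicate 1 or Tw2pos replicate 2 and under library total scaling, 5 without Tw2neg replicate 1) and 6 lower (2 without Tw2pos replicate 1 or Tw2neg replicate 1, with no filter on level and without the mean-variance trend, 3 under quantile normalization, 10 without Tw2neg replicate 2, 12 under library total scaling), and a median of −0.73. In the reported fit more of this list were called lower than higher. The share called higher was under the 18.7% of all tested genes, and the share called lower above the 20.0%. Pax7, described above and not called in the reported fit, belongs to this list (log2 fold change −1.48). Chodl, a membrane lectin of quiescent satellite cells, had 5936 and 5879.7 against 1607 and 721 (log2 fold change 2.46, SE 0.38, adjusted p = 0.0054). Met, the receptor of hepatocyte growth factor, had 369.7 and 322 against 181 and 161 (log2 fold change 1.01). Cxcr4, which leukocytes also carry, gave the largest fall of this list. Sdc4, a syndecan of satellite cells and many others, had 5929.5 and 7235 against 7891 and 5139 and was not called (log2 fold change 0.04, adjusted p = 0.922). Myogenic differentiation genes were higher in 5 of 24 (0 without Tw2pos replicate 2, 2 without Tw2neg replicate 2, 3 without Tw2pos replicate 1 and with no filter on level, 8 under quantile normalization, 10 without Tw2neg replicate 1) and lower in 5 (1 without Tw2pos replicate 1, 2 without Tw2pos replicate 2). Their median was 0.31, and −0.14 under library total scaling. Both shares in the reported fit were close to the 18.7% higher and 20.0% lower of all tested genes. Ckm, the creatine kinase of fibres, had 48.4 and 107 against 16.3 and 10.4 (log2 fold change 2.38). Acta1, skeletal actin, had 166 and 367 against 87.8 and 52.0 (log2 fold change 1.85). Tnnc2, fast troponin C, had 39.5 and 82.0 against 15.5 and 4.80 (log2 fold change 2.57). Ryr1, the calcium release channel, had 16.6 and 19.3 against 69.9 and 63.2 (log2 fold change −1.84). Mef2c had 640 and 578 against 1865 and 3461 (log2 fold change −2.06). Significance was lost for Acta1 and Tnnc2 with no filter on level (adjusted p from 0.051 to 0.0532), for Met under library total scaling (adjusted p = 0.0908), for Met and Ryr1 without Tw2pos replicate 1 (adjusted p from 0.0703 to 0.171), for Met, Ckm, Acta1, Tnnc2 and Ryr1 without Tw2pos replicate 2 (adjusted p from 0.0528 to 0.149), for Ckm, Acta1 and Tnnc2 without Tw2neg replicate 2 (adjusted p from 0.0595 to 0.102). The log2 fold change without Tw2neg replicate 1 or Tw2neg replicate 2, respectively, was 3.32 or 1.82 for Tnnc2.

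Genes of the dystrophin complex and the cell-matrix junction were higher in 9 of 25 (5 without Tw2pos replicate 2) and lower in 1 (0 without Tw2pos replicate 1 or Tw2pos replicate 2 and under quantile normalization, 2 without Tw2neg replicate 1, 4 under library total scaling), with a median of 0.62. Lama2, the laminin chain of the muscle basement membrane, had 15747 and 15695 against 5129 and 3446 (log2 fold change 1.90, SE 0.29, adjusted p = 0.00511). Sgcd, delta-sarcoglycan, had 223 and 204 against 42.3 and 24.8 (log2 fold change 2.68). Sgce, epsilon-sarcoglycan, had 1655 and 1912 against 594 and 368 (log2 fold change 1.93). Sspn, sarcospan, had 1411 and 1353 against 435 and 213 (log2 fold change 2.18). Utrn, the relative of dystrophin, had 3214 and 2933 against 4253 and 2966 and was not called (log2 fold change −0.21, adjusted p = 0.523). Each of the 4 genes named as rising had its lower labelled library above its higher unlabelled one. They were already called in the reported fit, so this order adds no separate support.

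The blood cell genes that fell span stages from progenitor to mature cell. Primary granule genes, which promyelocytes of the bone marrow express, were lower in 6 of 6, with a median of −5.95, or −5.89 with Ms4a3 at its bound. Mpo, myeloperoxidase, had 34.4 and 62.7 against 2801 and 2701 (log2 fold change −5.86, SE 0.30, adjusted p = 0.000435). Elane, neutrophil elastase, had 11.5 and 16.9 against 917 and 893 (log2 fold change −5.92). Ms4a3, which marks these precursors, had no reads in either labelled library against 172 and 158, at least 44.4-fold lower with a floor of 3 reads per library. Secondary granule genes, of later myelocytes, were lower in 11 of 11, with a median of −7.28 (−6.68 without Tw2pos replicate 2). Ngp had 107 and 76.0 against 20260.2 and 16602 (log2 fold change −7.65). Lcn2, which binds iron carriers, had 147 and 104 against 5751 and 4787 (log2 fold change −5.40). Genes of mature neutrophils were lower in 13 of 13, with a median of −6.48, such as S100a8, the partner of S100a9, with 89.2 and 61.5 against 10290.3 and 12154 (log2 fold change −7.22). Il1b, an inflammatory cytokine, had 85.4 and 151 against 3502 and 6047 (log2 fold change −5.33). Genes of all 3 stages thus had reads in both unlabelled libraries, and the labelled values of the genes named here were all below the unlabelled ones. All of these genes were already called, so the order is no separate support.

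**Figure D5:**
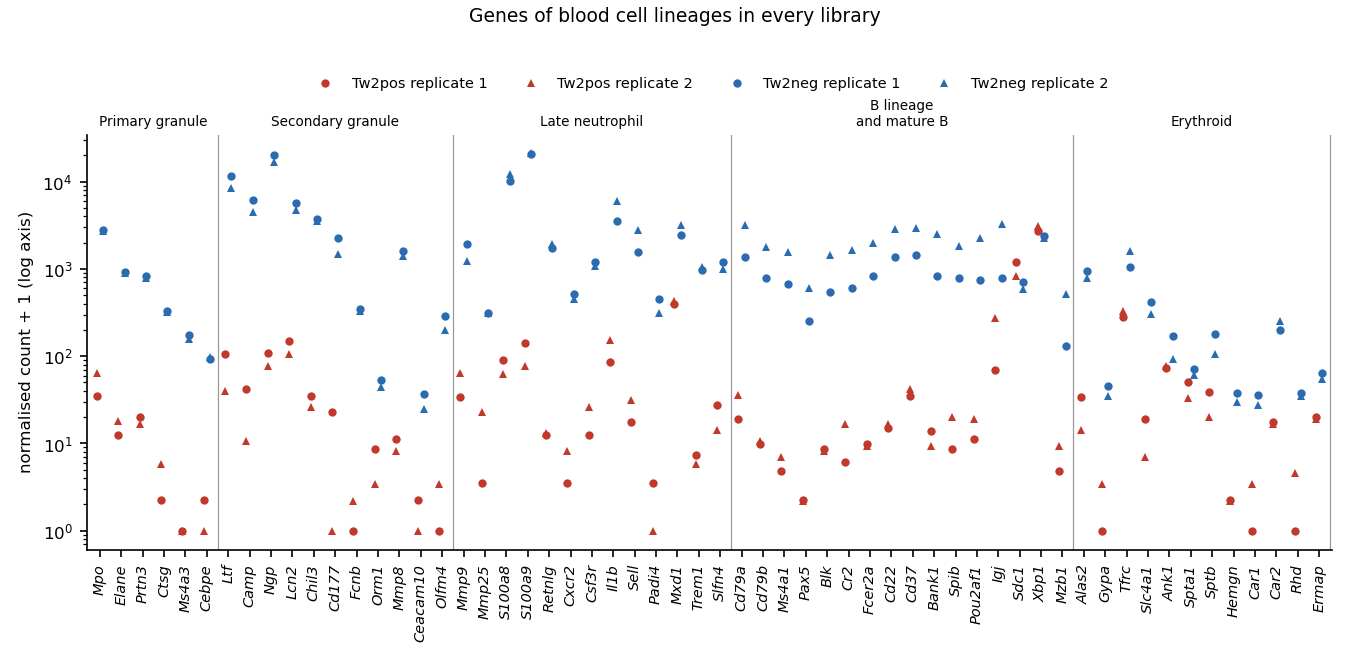
Normalised counts plus 1 (log axis) of genes of neutrophil stages, B cells and red cells in the 4 libraries, red for Tw2pos and blue for Tw2neg, circles for replicate 1 and triangles for replicate 2. Neutrophil genes such as Mpo and S100a9 have their 2 unlabelled libraries close together, while Cd177 and Mmp9 are higher in unlabelled replicate 1. Il1b and B-cell genes such as Cd79a and Ms4a1 are higher in unlabelled replicate 2 than in replicate 1.

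Lymphoid genes fell as well. B-lineage genes were lower in 15 of 17, with a median of −6.62 (−7.33 without Tw2neg replicate 1, −5.91 without Tw2neg replicate 2). Cd79a, a signalling chain of the B-cell receptor, had 17.8 and 35.0 against 1356 and 3159 (log2 fold change −6.31), higher in unlabelled replicate 2 than in replicate 1. Genes of B progenitors were lower in 6 of 9 and higher in 1 (0 without Tw2pos replicate 1 or Tw2pos replicate 2 and under library total scaling), with a median of −4.94, or −3.94 with Rag1 at its bound. Rag1, the recombinase of developing lymphocytes, had no reads in the labelled libraries against 69.9 and 44.0, at least 15.3-fold lower. The riser was Ebf1, a factor of B cells and of adipocyte progenitors, with 2306 and 2810.2 against 1294 and 1402 (log2 fold change 0.92). T and NK genes were lower in 21 of 22, with a median of −5.31, among them Cd8a with 5.10 and 8.44 against 669 and 869.9 (log2 fold change −6.65, SE 0.35, adjusted p = 0.000435). Klrd1, a receptor of NK cells, had 0 and 1.21 against 98.4 and 165, where the labelled values are 0 and 1 read. Thy1, on T cells and on fibroblasts, had 1388 and 1773 against 1555 and 2192 and was not called (log2 fold change −0.23, adjusted p = 0.478). Calls not kept were those for Ebf1 under library total scaling, without Tw2pos replicate 1 and without Tw2pos replicate 2 (adjusted p from 0.066 to 0.167). Without Tw2neg replicate 1 or Tw2neg replicate 2, respectively, the log2 fold change was −6.92 or −5.70 for Cd79a.

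Monocyte and macrophage markers were lower in 17 of 20, with a median of −2.07 that was less far from 0 than those of the granule genes. Lyz2, the lysozyme of myeloid cells, had 806 and 1002 against 16162 and 15691 (log2 fold change −4.15, SE 0.21, adjusted p = 0.000435). Cd14, a receptor for bacterial lipopolysaccharide, had 302 and 504 against 3183 and 3776 (log2 fold change −3.15). Class II and dendritic cell genes were lower in all 17 of 17, with a median of −5.48, and H2-Aa, a class II chain, had 325 and 396 against 12352 and 27079 (log2 fold change −5.67). Erythroid genes were lower in 10 of 12, with a median of −3.81 (−3.09 without Tw2pos replicate 1), led by Alas2, the first enzyme of haem synthesis in red cells, with 33.1 and 13.3 against 953 and 776 (log2 fold change −5.29). Markers of blood stem and progenitor cells were lower in 9 of 16 and higher in 2 (1 without Tw2pos replicate 2, 4 without Tw2neg replicate 1 and under quantile normalization), with a median of −2.33. The fallers took in Spn, a sialoprotein of leukocytes, with 16.6 and 20.5 against 805 and 1275 (log2 fold change −5.71). Lyl1, a factor of blood progenitors, had 6.37 and 9.65 against 271 and 413 (log2 fold change −5.24). The risers were Meis1 and Cd34, which fibro-adipogenic progenitors also carry, the latter with 12466 and 15244 against 5905 and 3559.7 (log2 fold change 1.59). The call was lost for Cd34 without Tw2pos replicate 2 (adjusted p = 0.0787). The log2 fold change without Tw2pos replicate 1 or Tw2pos replicate 2, respectively, was −5.92 or −4.66 for Alas2.

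Endothelial markers were lower in 17 of 24 (8 without Tw2pos replicate 2, 10 with no filter on level and without the mean-variance trend) and higher in 0 (0, 0 and 0; 1 without Tw2neg replicate 1), with a median of −1.98 (−1.30 without Tw2neg replicate 1, −2.71 without Tw2neg replicate 2). Kdr, a receptor of vascular endothelial growth factor, had 462 and 253 against 3894 and 1042 (log2 fold change −2.55, SE 0.62, adjusted p = 0.0235). Flt4, the form of lymphatic vessels, had 80.3 and 48.2 against 607 and 219.9 (log2 fold change −2.53). Pericyte and smooth muscle markers were higher in 2 of 16 (1 without Tw2pos replicate 1 or Tw2pos replicate 2, with no filter on level and without the mean-variance trend, 5 without Tw2neg replicate 1) and lower in 0 (2, 0 and 1; 1 with DESeq2, 2 without Tw2neg replicate 2 and under library total scaling). Their median was 0.10 (−0.34 under library total scaling, −0.05 with edgeR, −0.06 with DESeq2, −0.37 without Tw2pos replicate 1, 0.82 without Tw2neg replicate 1, −0.82 without Tw2neg replicate 2). In the reported fit the share called higher was under the 18.7% of all tested genes. The risers were Pdgfrb, with 6028 and 5848 against 2564 and 978 (log2 fold change 1.91), and Ndufa4l2, with 539 and 538 against 245 and 75.2 (log2 fold change 1.98). Acta2, smooth muscle actin, had 4966 and 2682 against 5689 and 2037 and was not called (log2 fold change 0.10, adjusted p = 0.894), nor was the smooth muscle myosin Myh11, with 4170.2 and 2056 against 5999.8 and 2033 (log2 fold change −0.25, adjusted p = 0.749). Significance was lost for Kdr and Ndufa4l2 with no filter on level and without the mean-variance trend (adjusted p from 0.0513 to 0.0621), for Ndufa4l2 without Tw2pos replicate 1 and without Tw2pos replicate 2 (adjusted p from 0.0575 to 0.0611). Without Tw2neg replicate 1 or Tw2neg replicate 2, respectively, the log2 fold change was −1.60 or −3.51 for Kdr, −1.80 or −3.26 for Flt4, 2.60 or 1.21 for Pdgfrb and 2.82 or 1.13 for Ndufa4l2.

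Schwann cell and myelin genes were higher in 4 of 16 (1 without Tw2pos replicate 1 or Tw2pos replicate 2, 2 under library total scaling) and lower in 7 (2 without Tw2pos replicate 2, 4 without Tw2neg replicate 1, with no filter on level and without the mean-variance trend), with a median of −1.37 (−0.78 without Tw2neg replicate 1, −1.95 without Tw2neg replicate 2). Mbp, myelin basic protein, had 309.8 and 186 against 1562 and 1185 (log2 fold change −2.50, SE 0.29, adjusted p = 0.00253). L1cam, an adhesion protein of axons, had 77.8 and 73.6 against 477 and 367 (log2 fold change −2.45), while the sodium channel Scn7a had 2404 and 2259 against 806 and 649 (log2 fold change 1.69). Adipocyte and lipid genes also went both ways, 5 higher (3 without Tw2pos replicate 1) and 6 lower (3 without Tw2pos replicate 2) of 17. Their median was 0.10 (−0.43 with a minimum mean of 50, −0.08 under quantile normalization, −0.35 under library total scaling). Cidec, a lipid droplet protein, had 38.2 and 25.3 against 0.813 and 0.8, where each unlabelled value is 1 read. Adipoq, adiponectin, had 45.9 and 33.8 against 8.95 and 7.20 (log2 fold change 2.16). Dgat1, an enzyme of triglyceride synthesis, had 323 and 381 against 1800.4 and 2509 (log2 fold change −2.60). Lipe, hormone-sensitive lipase, had 282 and 191 against 1264 and 625 (log2 fold change −1.94). Cfd, known as adipsin, belongs to this list too. Calls not kept were those for Adipoq without Tw2pos replicate 1 (adjusted p = 0.094).

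Bone and cartilage genes were lower in 10 of 22 and higher in 3 (1 without Tw2pos replicate 1 or Tw2neg replicate 2 and under library total scaling), with a median of −1.21. Ibsp, bone sialoprotein, had 68.8 and 44.6 against 548 and 407 (log2 fold change −3.07, SE 0.31, adjusted p = 0.00165). Comp, a member that tendon shares, was among the risers, with Sox6, a cartilage factor, at 296 and 269 against 179.7 and 112 (log2 fold change 0.99). The unlabelled libraries that held Col2a1, Acan and Ibsp also held the granule genes of marrow precursors described above, and the part of bone and marrow in the digested tissue was not tested. The call was lost for Sox6 with no filter on level, under library total scaling, without the mean-variance trend, without Tw2pos replicate 1, without Tw2pos replicate 2 and without Tw2neg replicate 2 (adjusted p from 0.0595 to 0.222).

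DNA replication genes were lower in 19 of 26 (10 without Tw2pos replicate 2), with a median of −1.44, and mitosis genes in all 25 of 25 (16 without Tw2pos replicate 2 or Tw2neg replicate 2), with a median of −2.23. Mki67, the proliferation antigen, had 244 and 124 against 1502 and 1861 (log2 fold change −3.26, SE 0.34, adjusted p = 0.00181). Top2a, a topoisomerase of dividing cells, had 227 and 112 against 786 and 1189 (log2 fold change −2.59). Mcm5, a subunit of the replicative helicase, had 111 and 92.9 against 449 and 785 (log2 fold change −2.54). Blood cell genes fell in the same libraries, and their part in these values was not tested. Inhibitors of the cycle and imprinted growth genes were higher in 9 of 23 (5 without Tw2pos replicate 1 or Tw2pos replicate 2, 14 without Tw2neg replicate 1) and lower in 1 (0 without Tw2pos replicate 1 or Tw2pos replicate 2, 2 without Tw2neg replicate 1 or Tw2neg replicate 2, 4 under library total scaling), with a median of 0.60. This list also takes in genes of quiescence. The members named from it here are not inhibitors of cyclin-dependent kinases, so they do not show how those inhibitors moved. Mest, an imprinted gene of mesoderm, had 1541 and 1586 against 355 and 164 (log2 fold change 2.69). Ndn, the imprinted growth suppressor necdin, had 1167 and 1566 against 425 and 238 (log2 fold change 2.08). Gas6, a ligand of receptors that clear dying cells, had 12651 and 12919.6 against 4424 and 2259.6 (log2 fold change 2.02).

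The lists of general cell machinery had medians closer to 0 than those of cell division. Ribosomal protein genes were higher in 0 (0, 0 and 0) and lower in 4 of 56 (0 without Tw2pos replicate 2 or Tw2neg replicate 2, 1 without Tw2pos replicate 1, with no filter on level and without the mean-variance trend, 2 with edgeR, 21 without Tw2neg replicate 1, 22 under library total scaling), with a median of −0.42. Rps3 had 6007 and 7711 against 7625 and 13548 and was not called (log2 fold change −0.58, adjusted p = 0.237). Respiratory chain genes were higher in 0 (2, 0 and 0; 1 without Tw2neg replicate 1 or Tw2neg replicate 2, 2 under quantile normalization) and lower in 2 of 39 (0 without Tw2pos replicate 1 or Tw2pos replicate 2 or Tw2neg replicate 2, under quantile normalization and without the mean-variance trend, 1 with no filter on level, under TMM scaling, with edgeR and with DESeq2, 14 under library total scaling), with a median of −0.08, and 0.01 under quantile normalization. Glycolysis genes were higher in 2 of 22 (0 without Tw2pos replicate 2, 1 without Tw2pos replicate 1, with no filter on level, under library total scaling, without the mean-variance trend and with edgeR) and lower in 9 (3 without Tw2pos replicate 2, 5 without Tw2pos replicate 1, 15 under library total scaling), with a median of −0.51, and the hexokinases went apart. Hk2, the form of muscle and fat, had 4713 and 6408 against 2092 and 1973 (log2 fold change 1.44). Hk3, the form of leukocytes, had 21.7 and 21.7 against 676 and 501 (log2 fold change −4.68). Genes of cholesterol synthesis were higher in 1 of 23 (0 without Tw2pos replicate 1 or Tw2pos replicate 2, under library total scaling, without the mean-variance trend and with DESeq2, 2 with a pseudocount of 10, under quantile normalization and under TMM scaling, 5 without Tw2neg replicate 1) and lower in 2 (0 without Tw2pos replicate 1 or Tw2pos replicate 2), with a median of 0.24, and −0.21 under library total scaling. Ribosomal protein and glycolysis genes have near-identical copies elsewhere in the genome, so low or 0 values among them are uncertain. Significance was lost for Hk2 without Tw2pos replicate 2 (adjusted p = 0.0536).

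Redox enzymes were higher in 12 of 29 (7 without Tw2pos replicate 2) and lower in 1 (2 under library total scaling), with a median of 0.58. Sod3, the superoxide dismutase of the extracellular matrix, had 4132 and 4991 against 1298 and 815 (log2 fold change 2.14, SE 0.27, adjusted p = 0.00311). Gpx8, a peroxidase of the endoplasmic reticulum, had 978 and 1224 against 236 and 159.9 (log2 fold change 2.49). Aldh1a1, which makes retinoic acid, had 919 and 1160.3 against 301 and 217 (log2 fold change 2.01). Gsr, which regenerates glutathione, fell with 305 and 265 against 939 and 1067 (log2 fold change −1.81). Immediate-early genes, which respond within minutes to handling or signals, were higher in 2 of 22 (0 without Tw2pos replicate 1 or Tw2pos replicate 2 and under library total scaling, 1 with no filter on level and under quantile normalization, 7 without Tw2neg replicate 1, 9 with DESeq2) and lower in 1 (0 without Tw2pos replicate 2, 2 without Tw2neg replicate 1 and under library total scaling). Their median was 0.49, and −0.19 under quantile normalization. Fos had 52686 and 40282 against 33268 and 17397 and was not called (log2 fold change 0.94, adjusted p = 0.186), nor was Egr1, with 68483 and 68119 against 38244 and 23695 (log2 fold change 1.18, adjusted p = 0.115).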

How the data were processed

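The members and gene lists were chosen with earlier results of these data known. The authors deposited normalised read counts, a signal per gene, for 4 libraries of sorted mouse muscle cells, and the submitters' processing notes name TopHat2 2.0.0, DESeq2 1.6.3 and the build GRCm38/mm10. For the counter, annotation and strand the sources used here give nothing, so overlapping, antisense and near-identical genes are uncertain. Each column held whole multiples of its smallest value for 100% of values within 0.01, from which reads were recovered. A second deposited table, with 4 columns of per-sample values, was not used.

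The groups were compared with limma 3.58.1 in R 4.3.3 on log2 of normalised counts plus 1, with a mean-variance trend, for genes averaging at least 10, two-sided, with 2 residual and 4.004 prior degrees of freedom. Genes were called at a Benjamini-Hochberg adjusted p under 0.05 over all genes tested. edgeR 4.0.16 and DESeq2 1.42.0 were run on the recovered reads as other settings, beside other pseudocounts, filters and scalings, no variance trend, the replicate number as a block, and each library left out, where a lone sample is assumed to vary like the other group. The scripts were tested on simulated data. Replicates differed by more than counting error, with chi-square per degree of freedom of 11.6 in Tw2pos and 59.0 in Tw2neg.

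Named genes are Twist2, Twist1 and Pax7, the 10 largest called rises and falls among genes that do not overlap between the groups and average 50 or more, the 10 of highest mean per group, and from each of 59 lists the 3 of highest mean and the 3 largest called changes each way, with 6 abundant unchanged genes, the 5 per group that differ most between replicates, and those next to the minimum mean. Predicted genes were left out of the largest changes. Lists are described and not tested, and a few of their members are not reported here by name. Positions and merged exon lengths are from GENCODE M21 (GRCm38), used only for location and length, and upstream sequences from RefSeq (GRCm38.p6). Floors cover counting error only. Python 3.11.15, numpy 2.4.6, pandas 2.3.3 and matplotlib 3.10.9 made the tables and figures.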

Additional observations from a re-analysis of the deposited data

How the results depend on the processing

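The reported fit of Tw2pos against Tw2neg called 5470 genes, 2645 higher and 2825 lower. With 1 library left out, the total ran from 2578 without Tw2pos replicate 2 to 7370 without Tw2neg replicate 1, the higher calls from 1010 to 3699, and the lower calls from 1568 to 3671. Library total scaling gave 1607 higher and 5257 lower genes. The total stayed within 1.5 times the reported count with pseudocounts of 10 and 0.5 (5633 and 5429), with no filter and with a minimum mean of 50 (4782 and 4689), under quantile normalization and TMM scaling (5552 and 5431), without the variance trend (4659), and with edgeR and DESeq2 (5342 and 5296). With the replicate number as a replicate block, 6627 genes were called, 5463 of them also in the reported fit. The labels do not say that the numbers pair the samples, and with 2 pairs the correlation across genes of the replicate differences in the 2 groups, 0.263, does not settle it. Heat-shock genes, described below, were higher in replicate 2 for 16 of 16 in Tw2pos and for 15 in Tw2neg. Keratins were higher in replicate 1 for all 14 in Tw2neg but for 6 in Tw2pos. Pairing was not tested. Of 118 counts of list members called in a direction, 20 differed by more than 1.5 times with the block, 10 with the minimum of 50, which tests fewer genes, 30 under library total scaling and 40 without Tw2pos replicate 2. Of 169 called genes named here, 14 were not called without Tw2pos replicate 2, 10 without Tw2pos replicate 1 and 1 with the block, and none had a fold change of the opposite sign under any of the 15 settings. Of the genes named here that the reported fit did not call, 10 were called with DESeq2 and 6 under library total scaling. Without the variance trend 5 of them were called, and with the block 4. Among list medians, 4 of 59 changed sign under quantile normalization and 4 under library total scaling. The cause was not tested. With 2 libraries per group, a gene that missed the threshold is not shown to be alike in both.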

Other observations

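Eosinophil, mast cell and platelet genes were higher in 1 of 14 and lower in 8, with a median log2 fold change of −3.37 (−1.71 without Tw2pos replicate 1, −4.76 without Tw2pos replicate 2, −4.00 without Tw2neg replicate 1, −2.74 without Tw2neg replicate 2). The eosinophil granule gene Prg2 had 26.8 and 91.7 normalised counts in Tw2pos and 2401 and 3174 in Tw2neg (log2 fold change −5.77), and Ear1, an eosinophil ribonuclease, had 1.27 and 2.41 against 198 and 279 (log2 fold change −6.40). Tpsb2, a tryptase of mast cells, had 10.2 and 166 against 317 and 773 and was not called (log2 fold change −3.52, adjusted p = 0.0631). Without Tw2pos replicate 1 or Tw2pos replicate 2, respectively, the log2 fold change was −4.90 or −6.64 for Prg2.

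Heat-shock genes and keratins differed between the libraries of a group. Of 16 heat-shock genes, 16 were higher in replicate 2 than in replicate 1 in Tw2pos and 15 in Tw2neg. Their summed normalised counts were 76452 and 153971 in Tw2pos and 82798 and 157612 in Tw2neg, and 4 were higher in Tw2pos than in Tw2neg (1 without Tw2pos replicate 2 or Tw2neg replicate 1). With limma 0 were lower, 0 at an unadjusted p under 0.05, 0 by edgeR and 0 by DESeq2. Hspa1b, an inducible chaperone, had 15031 and 35988 against 18876 and 43120.3 (log2 fold change −0.29, adjusted p = 0.731). Of 14 keratins, which epithelium makes, all 14 were higher in replicate 1 in Tw2neg and 6 in Tw2pos. The keratins were grouped after their values were seen. Krt2 and Krt77, keratins of skin, were among the genes whose replicates differed most, and Krt2 had 96.9 and 2.41 against 136 and 1.599. Krt77 had 333 and 26.5 against 214 and 13.6. The cause of these differences was not tested.

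Some enzymes that all cells use had few or no reads in every library. Eno1, a glycolytic enolase, is listed at 0 in all 4 libraries, and Gapdh had 45.9 and 63.9 against 135 and 106 normalised counts. Both were chosen after their values were seen. A value at or near 0 for such a gene can be a failed estimate.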
